A study of Mus musculus with 6 samples.

Results

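Described here are the chromatin regions that the deposited tables assign to 10 cyclin and cell-cycle genes, namely Ccnd1, Ccnd2, Ccnd3, Ccne1, Ccne2, Ccna2, Ccnb1, Ccnb2, Cdk1 and Mki67. A region belonged to the group when its assigned gene symbol was one of these 10, with no use of its own values. The genes themselves were chosen with earlier results of these data known. The symbols gathered 73 of 370756 regions, and 10 of the 26742 genes named in the tables. The data came from CUT&Tag in primary mouse cardiac fibroblasts, a method in which an antibody steers a transposase to chromatin so that reads collect where the bound protein sits. There were 6 libraries, each the only one of its kind, so that no difference below could be set against the spread between replicates and no test of a treatment was possible.

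The labels mark 3 libraries with T and 3 with S, here named T set and S set. No label gives the antibody. The study profiled TAZ and SRF, and reading T as TAZ, a coactivator that reaches DNA through TEAD factors, and S as SRF, a factor that binds the CArG box, is an inference. Each set held one library labelled NC, one treated with TGF-b, a cytokine under which fibroblasts become contractile, matrix-secreting myofibroblasts, and one treated with TGF-b together with an siRNA. By its label the siRNA is SiTAZ for the T libraries and carries the name of SRF for the S libraries, while the text of the study speaks of siRNA against Piezo2, a mechanosensitive ion channel. The labels give no mouse strain, age, genotype, dose or time, and no label carries the Tet3 deletion that the design text of the series mentions. Whether the cells were fibroblasts cannot be checked from tables that hold chromatin association and not transcripts.

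As background, D-type cyclins join Cdk4 or Cdk6 early in G1 and link growth signals to the cell cycle, E-type cyclins join Cdk2 at entry into S phase, cyclin A2 serves S phase and G2, and B-type cyclins with Cdk1 drive mitosis. Ki-67, the product of Mki67, coats mitotic chromosomes and is the customary marker of proliferating cells. Resident cardiac fibroblasts are mostly quiescent in the healthy heart and can proliferate after injury. Promoters of G2 and mitosis genes are known for CCAAT boxes, bound by NF-Y, and for CHR elements, while G1/S promoters are known for E2F sites.

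Upstream sequences bear on these data because the T set region with the most reads lay over the promoter in several of the genes. RefSeq promoter windows on GRCm38.p6 were matched by symbol for 6 of the 10 genes, namely Ccnb1, Ccnb2, Ccnd3, Ccne1, Cdk1 and Mki67. In each of these 6, a T set region overlapped the 250 bases before a RefSeq start, as placed through the transcript to which the tables measure the distance. Of these, 4 are printed, each 5′ to 3′ up to the first annotated transcript start. Ccnd3 is shown for the promoter that was high with TGF-b alone in the T set, Ccnb2 and Mki67 for promoters whose T set and S set ratios lay on opposite sides of 0, and Cdk1 as the kinase partner. Capitals mark CCAAT (or ATTGG on the other strand), TTTGAA (the CHR letters), and the E2F letters TTGGCGC.
Ccnd3, chr17:47593217-47593435, plus strand: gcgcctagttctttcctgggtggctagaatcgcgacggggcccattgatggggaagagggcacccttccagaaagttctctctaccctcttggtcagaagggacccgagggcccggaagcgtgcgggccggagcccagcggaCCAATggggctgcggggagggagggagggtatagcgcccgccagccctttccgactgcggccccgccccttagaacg
Ccnb2, chr9:70421555-70421804, minus strand: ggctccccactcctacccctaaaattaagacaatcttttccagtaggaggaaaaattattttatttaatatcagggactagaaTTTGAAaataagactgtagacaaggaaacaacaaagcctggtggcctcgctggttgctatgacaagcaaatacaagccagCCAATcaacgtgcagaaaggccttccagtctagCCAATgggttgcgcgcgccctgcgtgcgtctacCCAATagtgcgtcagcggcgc
Cdk1, chr10:69352939-69353162, minus strand: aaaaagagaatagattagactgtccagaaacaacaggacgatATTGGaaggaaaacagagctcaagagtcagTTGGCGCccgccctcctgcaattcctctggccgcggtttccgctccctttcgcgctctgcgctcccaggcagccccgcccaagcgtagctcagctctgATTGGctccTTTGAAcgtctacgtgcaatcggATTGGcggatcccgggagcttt
Mki67, chr7:135716380-135716629, minus strand: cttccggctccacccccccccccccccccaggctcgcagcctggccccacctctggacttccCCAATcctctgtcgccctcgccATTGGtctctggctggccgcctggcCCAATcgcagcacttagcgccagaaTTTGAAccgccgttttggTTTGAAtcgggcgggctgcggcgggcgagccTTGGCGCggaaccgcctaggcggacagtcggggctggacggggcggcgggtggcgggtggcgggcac

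The 250 bases were searched on both strands for 5 motifs. CCAAT occurred in 5 of the 6 genes, all but Ccne1, against 37.5% of the 27025 genes with such a window (33.8% of 32851 windows of the same length). TTTGAA occurred in Ccnb2, Cdk1 and Mki67, against 18.3% of genes (16.0% of windows), and either TTCCCGC or TTGGCGC in Ccnb1, Cdk1 and Mki67, against 6.45% of genes (5.62% of windows). In Ccnb1 the E2F letters share bases with a CCAAT box. Of the motifs of the factors profiled, the TEAD core GGAATG occurred in Ccnd3 alone, against 14.4% of genes (12.6% of windows), and the CArG box of SRF in none of the 6, against 1.62% of genes (1.47% of windows). The Ccnd3 match began 17 bases before the RefSeq start. It lies in the last 31 bases, left out above because an annotated transcript starts there, so it is within that transcript. The match is shown in capitals, on the other strand, in a stretch of 30 bases.
Ccnd3, chr17:47593438-47593467, plus strand: gtgacgtaggagCATTCCacggttgctaca
These matches describe letters in a window and do not show binding.

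The value of a region is the authors' normalized read density, in reads per kb after a rescaling between the 2 libraries of a table. Undoing that rescaling gave whole reads in a window of 2 kb around each region, and these read numbers give the depth behind each density. Windows of neighbouring regions overlap and share reads. A region entered a table once the authors had called it in at least 1 of the 2 libraries, so where only 1 library called it, a high value there was part of how it was selected. Reads are not scaled to the depth of a library, so differences are given as the log2 ratio of the 2 densities with a 95% Wilson interval from the reads, which covers counting error only. Positions are those of the files, on GRCm39 by the study's methods. The lead region of a gene is the one within 3 kb of a transcription start site (TSS) with the highest mean density in its table, or else the densest region of the gene. The TGF-b library of a set enters both of its tables, so a high TGF-b value raises the ratio over NC and lowers the ratio of siRNA over TGF-b by the same reads.

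The 10 genes held 58 T set regions, of which 21 lay within 3 kb of a TSS and 37 farther away. They held 15 S set regions, 7 near a TSS and 8 farther. Every gene had a T set region near a TSS, whereas Ccnd1, Ccnd2 and Ccne2 had no S set region. Ccnb2 took 20 T set regions, but 18 of them lay within Myo1e, a neighbouring gene, between 30.3 kb and 102.8 kb from the Ccnb2 TSS. Likewise 4 of the 5 S set regions of Ccnb2 lay in Myo1e, 2 T set regions of Ccne2 in Ints8, 1 T set region of Ccnd1 in LTO1, and 1 region of Mki67 in each set in Ptpre. Counts over all regions therefore mix promoters with distant sites that the tables give to the nearest gene, and 20 T set and 7 S set regions could be followed through all 3 libraries.

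At lead regions near a TSS in the T set, 4 of the 10 genes (Ccnd1, Ccnd2, Ccnd3 and Ccnb1) had a density at least 2-fold higher with TGF-b than in NC, where 20.6% of the 16652 genes with such a region did. Only Ccne2 was at least 2-fold lower, against 25.1% of genes, and the other 5 genes lay between. The median log2 ratio of the 10 was 0.82, and that of all genes was -0.04. With ratios centred on the table's median, a scaling added for these counts after the values were seen, 6 of the 10 were higher and none was lower, against 37.8% and 14.7% of genes, since Ccna2 and Ccne1 passed 2-fold and Ccne2 no longer did. With siRNA over TGF-b, 4 of the 10 (Ccnd1, Ccnd2, Ccnd3 and Ccnb2) were at least 2-fold lower, against 20.4% of 16732 genes, and none was at least 2-fold higher, against 31.5%. The median was -0.63 for the 10 and 0.20 for all genes. Lower genes numbered 5 with the rescaling undone, against 31.1%, and 7 after centring, against 43.5%. None was higher in either, against 24.2% and 15.9% of genes.

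**Figure D1:**
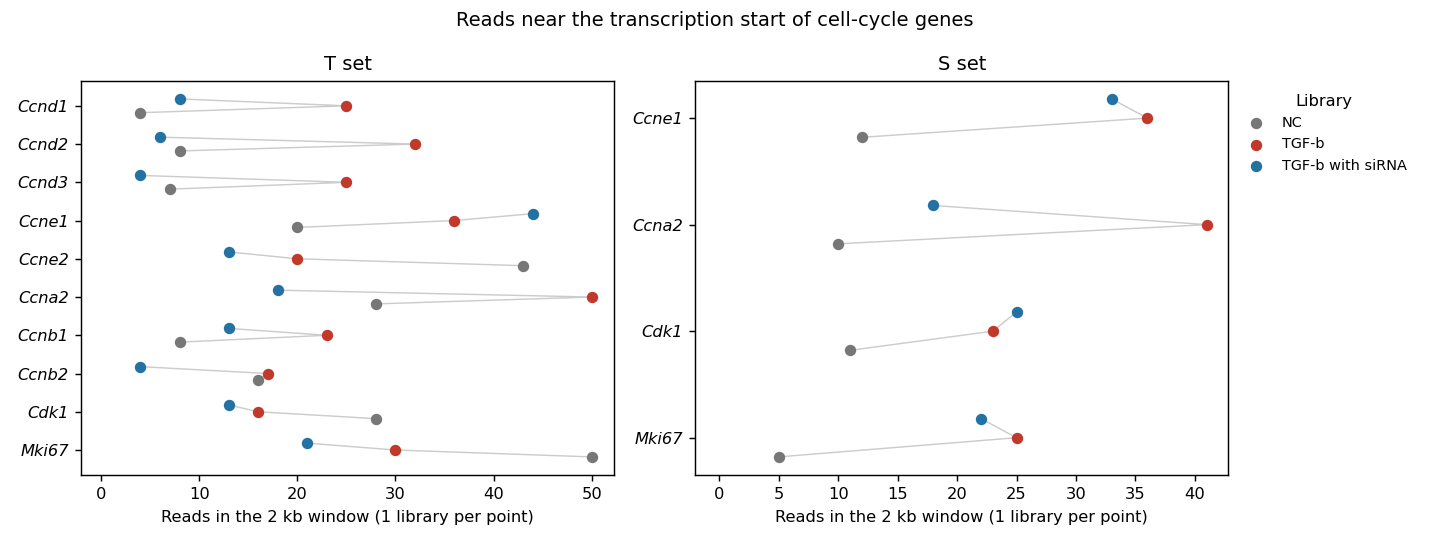
Reads in the 2 kb window (horizontal axis) of the region near a TSS with the most reads among those followed through all 3 libraries, for each gene (vertical axis), in the T set (left) and the S set (right). Each point is 1 library. In the T set the TGF-b point lies to the right of both others for the 3 D-type cyclins, Ccna2, Ccnb1 and, by 1 read, Ccnb2, while NC is highest for Ccne2, Cdk1 and Mki67. Reads are not scaled to library depth.

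Each of the 3 D-type cyclins had a T set lead region with its highest reads with TGF-b. All 3 regions were called in the TGF-b library and in neither of the others, so a high TGF-b value was part of how they were selected. Ccnd1, the D-type cyclin classically tied to growth factor signals, had its lead region at chr7:144489390-144489516, in intron 3 of 4. It lay 2481 bases past a TSS, and no Ccnd1 region was annotated as promoter. This lead region held 4 reads in NC, 25 with TGF-b and 8 with siRNA. The density was 2.41 in NC and 13.5 with TGF-b, a log2 ratio of 2.48 (1.29 to 4.21). For siRNA over TGF-b it was -1.07 (-2.30 to -0.06). A second region assigned to Ccnd1, 9174 bases from the TSS and within the neighbouring gene LTO1, had 2, 11 and 1 reads in the same order. This second region too was called in the TGF-b library alone. The highest value with TGF-b thus rests on that selection at both regions, at low depth.

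Ccnd2, a further partner of Cdk4 and Cdk6, had a single region, over its promoter at chr6:127127975-127128100. This region held 8 reads in NC, 32 with TGF-b and 6 with siRNA. The log2 ratio of density was 1.94 (0.98 to 3.16) for TGF-b over NC and -1.77 (-3.17 to -0.73) for siRNA over TGF-b. Neither interval included 0, and all ratios of the 3 D-type lead regions kept their direction with the authors' rescaling undone or with ratios centred on the table's median.

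Ccnd3, transcribed from several annotated starts, had 11 T set regions, 5 of them near a TSS. The lead region at chr17:47904251-47904382 lies over the promoter printed above. It held 7 reads in NC, 25 with TGF-b and 4 with siRNA. The log2 ratio was 1.78 (0.74 to 3.10) for TGF-b over NC and -1.92 (-3.64 to -0.72) for siRNA over TGF-b. At another start of the gene, a region in the 5′ UTR at chr17:47816029-47816156 had 6, 17 and 0 reads, so that the density with siRNA was at least 3.30-fold lower than with TGF-b when 0 reads are set to the floor of 3. An intronic region at chr17:47865772-47865885 had 0 reads in NC, 16 with TGF-b and 0 with siRNA, hence at least 4.88-fold higher with TGF-b than in NC and at least 3.12-fold lower with siRNA. This region and the 5′ UTR region were called in the TGF-b library alone, so their bounds rest on that selection.

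Not all Ccnd3 regions behaved alike. The densest, in intron 1 at chr17:47822089-47822459, held 33, 38 and 21 reads, and its ratios were 0.20 (-0.46 to 0.87) and -0.35 (-1.14 to 0.38) on the log2 scale. As many Ccnd3 regions were at least 2-fold lower with TGF-b as were higher, 3 each, and the lower ones had been called in NC alone. One, 36960 bases downstream of a TSS, went from 16 reads in NC to 1 with TGF-b, a log2 ratio of -2.92 (-6.40 to -1.27). Another, in intron 2 at chr17:47899236-47899401, went from 10 reads to 2, a log2 ratio of -1.71 (-4.17 to -0.13). The third, near a start at chr17:47814671-47814772, had 4 reads and 1, with an interval that included 0 (-1.10, -4.51 to 0.96). A region 202 bases past a start inside the gene, at chr17:47908253-47908329, held 7 reads with TGF-b and 7 with siRNA. The 3 higher regions had been called in the TGF-b library alone, so a high TGF-b value was part of how they were selected. Under that limit, the high TGF-b values of Ccnd3 lay at 2 of its starts and at 1 distant intron, but not along the whole gene.

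Neither E-type cyclin was at least 2-fold higher with TGF-b in the T set, though Ccne1 was after centring. Ccne1, an activator of Cdk2, had its lead region at chr7:37807047-37807170 over the promoter, with 20 reads in NC, 36 with TGF-b and 44 with siRNA. The log2 ratios were 0.84 (0.09 to 1.65) and 0.76 (0.14 to 1.40). With ratios centred on the table's median they were 1.49 and -0.21, so that a direction with siRNA depends on the scaling. A Ccne1 region upstream of an internal transcript start, at chr7:37800168-37800256, had 0 reads with TGF-b and 13 with siRNA, at least 4.76-fold higher, and was called with siRNA only.

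Ccne2 was the one gene of the 10 whose lead region was at least 2-fold lower with TGF-b. This region, in intron 1 of 11 at chr4:11191817-11191967, held 43 reads in NC, 20 with TGF-b and 13 with siRNA. The log2 ratio of TGF-b over NC was -1.05 (-1.84 to -0.33), or -0.40 after centring, and that of siRNA over TGF-b was -0.12 (-1.14 to 0.83), or -1.09 and past 2-fold after centring. The neighbouring promoter region at chr4:11191207-11191373 held 35, 21 and 5 reads, which gave log2 ratios of -0.69 (-1.48 to 0.06) and -1.41 (-2.97 to -0.25). In reads, which are not scaled to depth, NC was the highest library at both regions, but the promoter ratio of TGF-b over NC was -0.03 after centring. A further intron region at chr4:11192030-11192101 had the same 43 and 20 reads as the lead region and is no second measurement.

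Ccna2, the cyclin of S phase and G2, had a T set region over the 5′ UTR at chr3:36626091-36626505. It held 28 reads in NC, 50 with TGF-b and 18 with siRNA, the most reads with TGF-b of any of the 10 genes. The log2 ratios were 0.81 (0.17 to 1.49) and -0.95 (-1.77 to -0.23), both under 2-fold with intervals clear of 0, although the second was -1.42 with the rescaling undone and -1.92 after centring. TGF-b was the highest library, as for the D-type cyclins, with smaller ratios.

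Ccnb1, one of the mitotic cyclins that activate Cdk1, had its T set lead region for TGF-b over NC in intron 1 of 8, at chr13:100922509-100922603. This region had 8 reads in NC and 28 with TGF-b, a log2 ratio of 1.76 (0.78 to 2.99), although the authors called it in NC only. The Ccnb1 promoter at chr13:100923102-100923296 was followed through all libraries and held 8, 23 and 13 reads. Its log2 ratios were 1.5 (0.47 to 2.74) for TGF-b over NC and -0.31 (-1.32 to 0.61) for siRNA over TGF-b. The second was -0.78 with the rescaling undone and -1.28 after centring, so its size depends on the scaling.

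The second B-type cyclin, Ccnb2, had nearly equal reads in NC and with TGF-b at its promoter. The region at chr9:70328748-70328968, which the printed sequence overlaps by annotation, held 16 reads in NC, 17 with TGF-b and 4 with siRNA. The log2 ratios were 0.15 (-0.81 to 1.12) and -1.39 (-3.13 to -0.13), or 0.80 and -2.36 after centring. Among the regions in Myo1e assigned to Ccnb2, a pair at 67814 and 67262 bases from the Ccnb2 TSS went from 21 to 1 and from 20 to 2 reads with TGF-b, while another, 30283 bases away, went from 1 read with TGF-b to 11 with siRNA. Each of these was called only in the library where it was high, and their assignment to Ccnb2 rests on proximity alone.

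Cdk1, the mitotic kinase, had its promoter region at chr10:69188734-69188906, with 28 reads in NC, 16 with TGF-b and 13 with siRNA. Its log2 ratios of -0.73 (-1.64 to 0.11) and 0.19 (-0.87 to 1.2) had intervals that included 0, and the second turned to -0.28 with the rescaling undone and to -0.79 after centring. A region in the 3′ UTR at chr10:69171598-69171716 stood apart, with 0 reads with TGF-b and 22 with siRNA, at least 7.84-fold higher. A second 3′ UTR region, at chr10:69174263-69174336, had 1 read with TGF-b and 8 with siRNA, a log2 ratio of 2.62 (0.82 to 6.07). Both 3′ UTR regions were called in the siRNA library alone and are not in the table of TGF-b over NC, so these ratios rest on that selection.

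Mki67 had 8 T set regions, 2 of them near a TSS. The promoter region at chr7:135318134-135318457 held 50 reads in NC, 30 with TGF-b and 21 with siRNA, and the log2 ratio of TGF-b over NC was -0.73 (-1.39 to -0.10), or -0.07 after centring. With siRNA over TGF-b the log2 ratio was -0.02 (-0.84 to 0.75), since the authors' rescaling sets 30 and 21 reads at densities of 13.2 and 13.0, and it was -0.99 after centring. Inside the gene, an exon region at chr7:135300258-135300369 held 10, 14 and 1 reads, and a downstream region at chr7:135290822-135290942 held 17, 9 and 1. The higher NC value at the Mki67 promoter, like that of Cdk1 at -0.07, was thus not kept after centring.

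**Figure D2:**
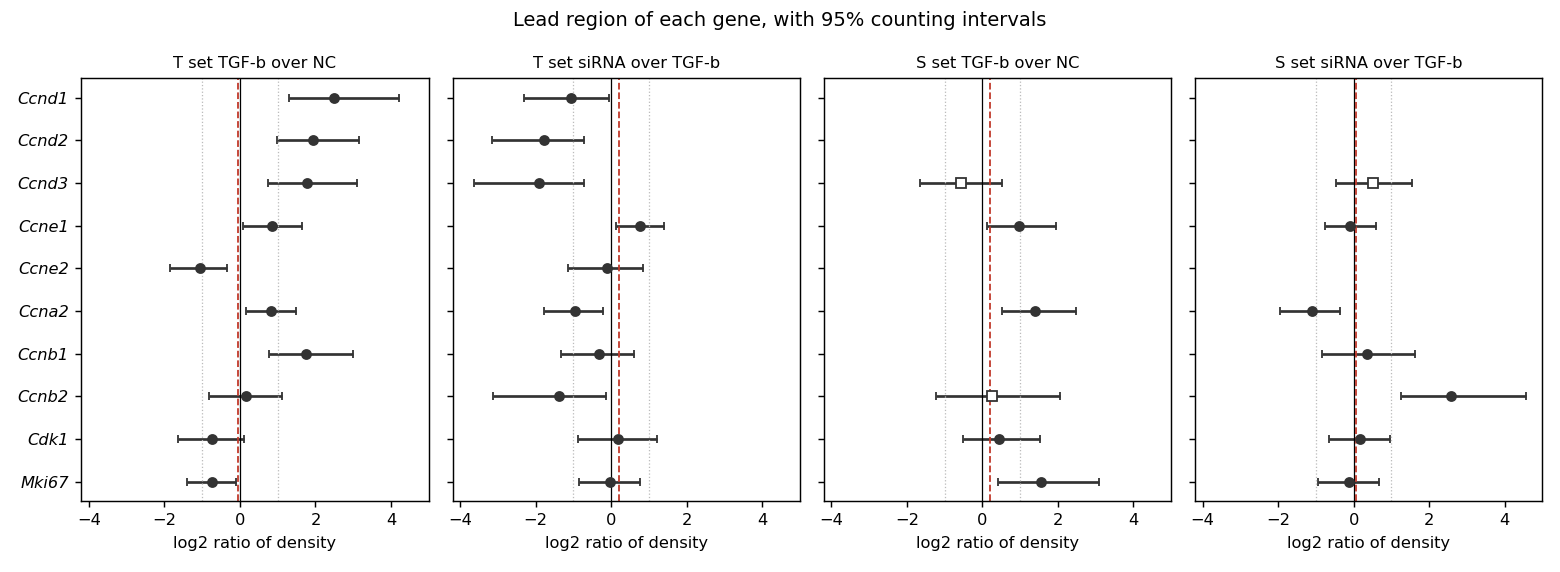
Log2 ratio of normalized read density (horizontal axes) at the lead region of each gene (vertical axis) in the 4 comparisons, with 95% counting intervals as bars. Filled circles are lead regions within 3 kb of a TSS and open squares lie farther away, dotted lines mark 2-fold, and the dashed line is the median over all genes with a lead region near a TSS. In the T set the 3 D-type cyclins lie right of 2-fold with TGF-b and left of it with siRNA.

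The S set held fewer regions, and only Ccna2, Ccne1, Cdk1 and Mki67 had a region near a TSS in the table of TGF-b over NC. Of these 4, Ccna2 and Mki67 were at least 2-fold higher with TGF-b, where 22.2% of 6762 genes were, and none was at least 2-fold lower, against 15.9%. The median log2 ratio was 1.17 for the 4 and 0.20 for all genes. All 4 were higher with the rescaling undone, against 42.7% of genes, and 3 after centring, against 28%. Under siRNA over TGF-b, 6 genes had a region near a TSS, with Ccnb2 at least 2-fold higher, against 13.6% of 8145 genes, and Ccna2 at least 2-fold lower, against 15.1%. The median there was 0.03 for the 6 and 0.05 for all genes, and after centring Ccna2 was no longer past 2-fold.

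Ccna2 alone among the S set promoters followed through all 3 libraries was more than 2-fold apart in both comparisons. Its region at chr3:36625971-36626452 held 10 reads in NC, 41 with TGF-b and 18 with siRNA. The log2 ratios were 1.38 (0.51 to 2.47) and -1.10 (-1.94 to -0.36), the second being -0.89 and under 2-fold after centring. The T set region of Ccna2 overlaps this one and had its highest value with TGF-b too.

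Ccne1, Cdk1 and Mki67 shared another order in the S set, with NC lowest and similar reads in the other libraries. All 3 promoter regions were called with TGF-b and not in NC, so a lower NC value was part of how they were selected. The Ccne1 promoter held 12, 36 and 33 reads, which gave log2 ratios of 0.96 (0.11 to 1.96) and -0.10 (-0.77 to 0.58). The Cdk1 promoter held 11, 23 and 25 reads, which gave log2 ratios of 0.44 (-0.51 to 1.52) and 0.16 (-0.64 to 0.97). The Mki67 promoter held 5, 25 and 22 reads, which gave log2 ratios of 1.55 (0.42 to 3.09) and -0.13 (-0.95 to 0.68). For Ccne1 and Mki67 the interval of TGF-b over NC was clear of 0, and for no gene of these 3 was that of siRNA over TGF-b.

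The B-type cyclin promoters were in the S set table of siRNA over TGF-b only. Ccnb1 had 9 reads with TGF-b and 11 with siRNA, a log2 ratio of 0.36 (-0.85 to 1.62). Ccnb2 had 3 reads with TGF-b and 21 with siRNA, a log2 ratio of 2.57 (1.26 to 4.57), beside 17 and 4 reads at the overlapping T set region. This S set region was called in the siRNA library alone, where it was high. Ccnd3 had no S set region near a TSS. Its intron 1 region at chr17:47822118-47822391 held 13, 13 and 18 reads, which gave log2 ratios of -0.57 (-1.65 to 0.52) and 0.51 (-0.47 to 1.55), and an intron region at chr17:47883429-47883569 held 7, 14 and 2.

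T set and S set regions met at 8 T set regions of 7 genes, 6 of them near a TSS, namely Ccna2, Ccnb1, Ccnb2, Ccne1, Cdk1 and Mki67. Over these promoters, Ccna2 was highest with TGF-b in both sets. For Mki67, NC was the highest library in the T set (50, 30 and 21 reads) and the lowest in the S set (5, 25 and 22 reads), but the T set log2 ratio of TGF-b over NC was -0.07 after centring. Cdk1 went from 28 to 16 reads with TGF-b in the T set and from 11 to 23 in the S set, with both intervals including 0. The S set regions of Mki67 and Cdk1 had been called with TGF-b and not in NC. The sets were normalized apart, and their differences were not tested.

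Over all regions assigned to the 10 genes, both directions occurred. In the T set, 10 of 37 regions were at least 2-fold higher with TGF-b than in NC and 13 were lower by the same margin, and their median log2 ratio was -0.73. Of the 10 higher regions 9 had been called in the TGF-b library only, and of the 13 lower ones 12 in NC only, so the counts rest on that selection. Of all regions compared, 17.3% were higher and 42.1% lower, with a median of -0.65. Near a TSS, 6 of 15 member regions were higher and 3 lower, with a median of 0.81, beside 19.2% and 29.2% of all regions there, with a median of -0.18. Centring each ratio on the table's median turned the 10 higher and 13 lower regions into 13 and 6, beside 26.7% and 27.2% of all regions.

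In the T set table of siRNA over TGF-b, 14 of 41 regions were at least 2-fold higher and 11 at least 2-fold lower, with a median of 0.19. The table as a whole had 49.7% higher and 16.2% lower, with a median of 0.97. After centring, 8 were higher and 18 lower, beside 29.2% and 28.9%. Near a TSS, 3 of 18 were higher and 6 lower, with a median of -0.07, beside 34.5% and 19.6% of all regions there, with a median of 0.33. All 14 higher regions had been called in the siRNA library only, and 10 of the 11 lower ones in the TGF-b library only, so the calls and the ratios describe the same reads.

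Of the remaining member regions, Ccna2 had a T set intron region with 1 read with TGF-b and 8 with siRNA, and the Ccne2 regions in Ints8 went from 7 reads in NC to 2 with TGF-b and from 0 with TGF-b to 4 with siRNA. An intron region of Ccne1 had 30 reads with TGF-b and 33 with siRNA, and one of Ccnd3, at chr17:47829276-47829353, had 16 in NC and 16 with TGF-b. The Cdk1 intron region at chr10:69188533-69188600, the densest of its gene in the siRNA table, had the same 16 and 13 reads as the promoter. In Mki67, a second downstream region repeated the 17 and 9 reads of the first, an exon region went from 11 reads to 5 with TGF-b, and an intron region from 6 to 0. The Myo1e regions assigned to Ccnb2 held 0 to 21 reads in any T set library and 1 to 10 in any S set library.

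In the S set, 2 of 8 regions were at least 2-fold higher with TGF-b and 1 lower, where the table had 17.4% and 26.7%, and the median was 0.39. Centring gave 3 higher and 0 lower, beside 21.7% and 21.6%. With siRNA, 4 of 14 were higher and 2 lower, beside 15.1% and 27.8% of the table, with a median of 0.44, and centring gave 5 and 1, beside 20.4% and 22.7%. Such small numbers allow no statement beyond the named regions.

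**Figure D3:**
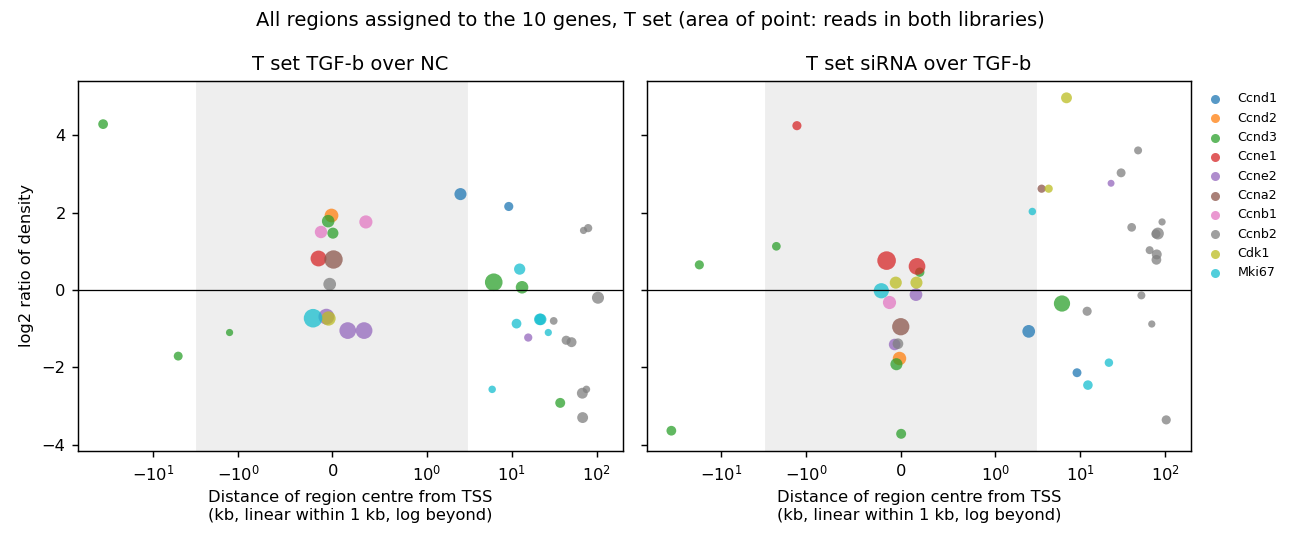
Log2 ratio of density (vertical axis) of every T set region assigned to the 10 genes against the distance of its centre from the TSS (horizontal axis, in kb, linear within 1 kb and logarithmic beyond), with TGF-b over NC on the left and siRNA over TGF-b on the right. Each point is a region, its area grows with the reads in both libraries, and the grey band is 3 kb on either side of the TSS. The grey points of Ccnb2 from 30.3 kb on lie in Myo1e.

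For context, 57 other cell-cycle genes in 6 lists were read in the same way at lead regions near a TSS. In the T set, 11 of 49 were at least 2-fold higher with TGF-b and 5 lower, with a median of 0.34, beside 20.6% and 25.1% of all genes. After centring, 24 were higher and 4 lower, beside 37.8% and 14.7%, with a median of 0.99. With siRNA over TGF-b, 9 of 45 were higher and 9 lower, with a median of -0.01, beside 31.5% and 20.4%. After centring, 3 were higher and 21 lower, beside 15.9% and 43.5%, with a median of -0.98, so the balance of directions depends on the scaling. The medians of the 10 cyclin and cell-cycle genes, 0.82 and -0.63, thus lay farther from 0 than those pooled over the 49 and 45 other genes. This was not tested. By list, the cyclin-dependent kinases had a median of 0.83 with TGF-b and the other cyclins one of -1.48 with siRNA, so the pooled value hides lists as far from 0. In the S set, 6 of 22 were higher and none lower with TGF-b (median 0.62), beside 22.2% and 15.9% of all genes. With siRNA, 5 of 27 were higher and 2 lower (median 0.24), beside 13.6% and 15.1%.

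Among the lists, the other cyclins had 2 of 5 genes higher with TGF-b and none lower, and 1 higher and 3 lower of 5 with siRNA. Of CDK inhibitors, which restrain cyclin-dependent kinases, 2 of 6 were higher and 1 lower with TGF-b, and none of 4 passed 2-fold with siRNA. RB and E2F genes, the switch for S phase entry, had 3 higher and 3 lower of 12 with TGF-b, and 5 higher and none lower of 13 with siRNA. G2/M and mitosis genes had 4 higher and 1 lower of 13 with TGF-b, and none higher and 4 lower of 10 with siRNA. S phase genes had none of 10 past 2-fold with TGF-b, and 3 higher and 2 lower of 11 with siRNA, while no cyclin-dependent kinase passed 2-fold in either, of 3 and 2 genes. After centring, the RB and E2F genes turned to 1 higher and 4 lower with siRNA and the S phase genes to 1 and 4, while 5 S phase genes and all 3 cyclin-dependent kinases passed 2-fold higher with TGF-b.

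Among lead regions with at least 10 reads in both libraries together, the largest rises with TGF-b were those of Cdc25a, a phosphatase that activates Cdk2 and Cdk1, from 9 to 59 reads (log2 ratio 2.62, 1.76 to 3.74), and Cdkn2c, an inhibitor of Cdk4 and Cdk6, from 3 to 20 reads (2.52, 1.2 to 4.52). The largest falls among these were those of Plk1, a mitotic kinase, at a region 3885 bases from its TSS, from 16 reads to 1 (-2.92, -6.40 to -1.27), and Tfdp1, an E2F partner, from 17 to 2 (-2.44, -4.90 to -0.98). With siRNA over TGF-b, Ccng2 went from 40 reads to 1 (-3.90, -7.39 to -2.34) and Ccng1 from 45 to 4 (-2.74, -4.44 to -1.61), both atypical cyclins. Tk1, the thymidine kinase of S phase, went from 1 to 20 reads (3.84, 2.22 to 7.33) and Ccna1 from 1 to 12 (3.15, 1.45 to 6.62).

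Of 42 genes of the wider lists with a lead region near a TSS in both T set tables, the 3 nearest to the members' medians, by Euclidean distance on the log2 scale, were E2f8, Cdc6 and Cdk4. E2f8 had log2 ratios of 0.92 and -0.64, at a distance of 0.091. Cdc6, a replication licensing factor, had 0.94 and -0.79, and Cdk4, the partner of D-type cyclins, 0.64 and -0.74. In Cdc6 the lead region differed between the tables.

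**Figure D4:**
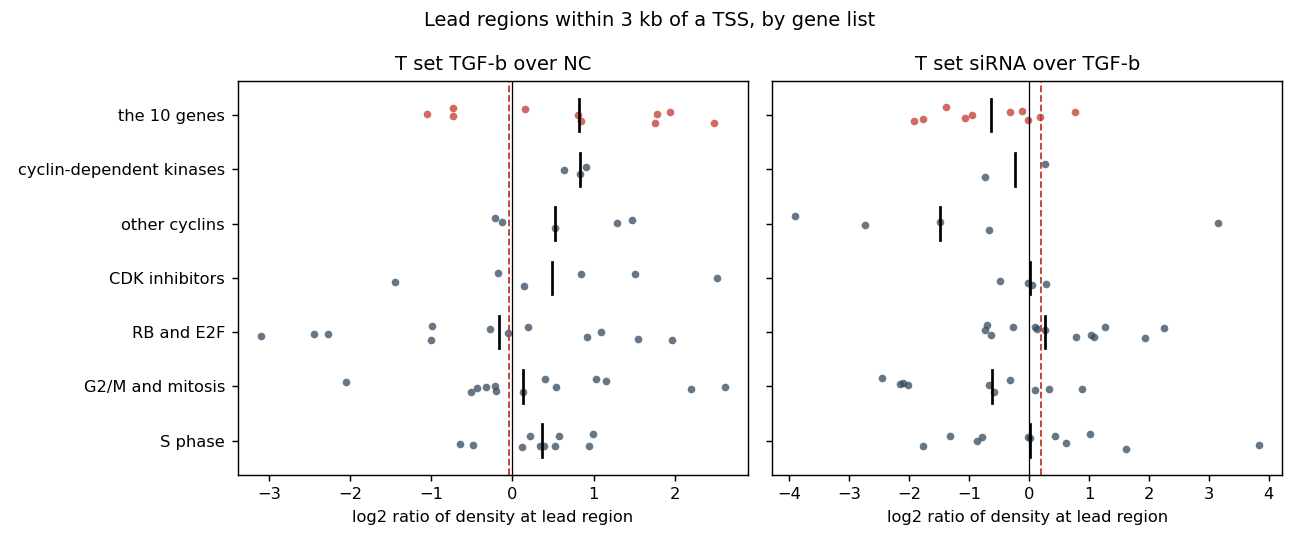
Log2 ratio of density (horizontal axes) at lead regions within 3 kb of a TSS in the T set, for the 10 genes (red) and the 6 wider lists (vertical axis), with TGF-b over NC on the left and siRNA over TGF-b on the right. Each point is a gene, black bars are list medians, and the dashed line is the median over all genes. The bar of the 10 genes lies at 0.82 on the left and at -0.63 on the right.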

How the data were processed

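CUT&Tag libraries were analysed from 4 tables, each comparing 2 of the 3 libraries of a set over their merged peaks. The methods of the study state alignment by Bowtie2 to GRCm39 and peak calling by a program spelled Masc2, whereas the submitters' processing notes list mm10 and BWA 0.7.12. Gene positions in the files differ from GRCm38, so no sequence was read by their coordinates. The density in the deposited tables is a signal (reads plus 1, per kb) that the authors had rescaled between libraries along a straight line on the log2 scale. Undoing the line gave whole reads (tolerance 0.1 read) in 99.96% to 99.99% of regions, and the line recovery was tested on simulated data. Per table, regions held medians of 5 to 10 reads per library. Deposited fold changes and p-values hold the authors' own comparison and were not used. The labels list the molecule as total RNA.

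Regions were selected by symbol with Python 3.11.15, pandas 2.3.3 and numpy 2.4.6. A region outside promoters was placed in a neighbouring gene when its centre lay outside the span of its assigned gene and inside the other's, from the gene positions in the tables. Log2 ratios came from the 2 densities within a table, with 2-fold as the threshold. With 1 library per group there was no test. Wilson 95% intervals cover counting error only, and 0 reads were set to the floor of 3 for a bound. Named genes were the 10 members, and from the wider lists the 2 largest rises and 2 largest falls per T set table at lead regions with at least 10 reads, plus the 3 genes nearest to the members' medians. Members and lists were chosen with earlier results of these data known. Alternatives undid the line, centred ratios on the table's median, required 10 reads, kept regions within 3 kb of a TSS, or used 1.5-fold.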

Additional observations from a re-analysis of the deposited data

Results flagged for a closer look

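At 2 promoters the T set and the S set lay on opposite sides of 0 with both counting intervals clear of it. For Mki67, TGF-b over NC had a log2 ratio of -0.73 (T set) against 1.55 (S set), but the T set value was -0.07 after centring on the table's median, so that contrast is not kept under that scaling. For Ccnb2, siRNA over TGF-b had a log2 ratio of -1.39 (T set) against 2.57 (S set, where the TGF-b library held 3 reads). In each of these comparisons the S set region had been called only in the library with the higher value, so that its ratio rests on that selection. Each value rests on 1 library per treatment, and neither contrast between sets was tested.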

How the results depend on the processing

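With no replicates, no alternative could leave one out, and no paired analysis was possible because each group holds 1 library. Undoing the authors' line kept all 33 lead-region values within their counting intervals, and centring kept 29. Centring moved Mki67 to -0.07 (TGF-b over NC) and -0.99 (siRNA over TGF-b), Ccna2 to -1.92 and Ccne1 to -0.21 (both siRNA over TGF-b), all in the T set. For T set regions with TGF-b over NC, lower regions numbered 6 after centring, 8 with at least 10 reads, 3 within 3 kb of a TSS and 20 at 1.5-fold, higher regions numbered 6 within 3 kb, and the median changed sign to 0.81 within 3 kb. For siRNA over TGF-b, higher regions numbered 8 after centring, 7 with at least 10 reads and 3 within 3 kb, and lower regions 18 and 6 after centring and within 3 kb. That median of 0.19 changed sign in each: -0.28 with the line undone, -0.79 after centring, -0.07 with at least 10 reads and -0.07 within 3 kb, so it carries no direction. In the S set with TGF-b over NC, the line undone gave 4 higher and 0 lower, and centring and 10 reads gave 0 lower. With siRNA, 1 was higher and 1 lower within 3 kb, and 1 lower after centring. For lead regions near a TSS, settings chosen after seeing the data gave in the T set 0 lower with TGF-b over NC and 7 lower with siRNA after centring, and in the S set 4 higher with TGF-b with the line undone and 0 lower with siRNA after centring. Fewer regions were kept within 3 kb and with 10 reads, but shares moved too. For T set siRNA over TGF-b, higher regions were 34.1% of member regions, and 16.7% within 3 kb. Lower regions were 26.8% and 33.3%. The cause of the shifts was not tested. Few reads per region, often under 10 in a library, limit every value.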
